A study of Rattus norvegicus with 4 samples.

Results

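Selectins and the immunoglobulin-family adhesion molecules that hold leukocytes on the vessel wall were followed in single-nucleus RNA of the rat heart after coronary occlusion. The 7 genes asked for were Selp, Sele, Selplg, Vcam1, Icam1, Icam2 and Pecam1, taken by gene symbol from a table of 32623 genes. Of these, 6 had a row under their symbol, and Pecam1 is not analysed here. The samples were infarct-zone tissue of Sprague Dawley rats: 1 sham-operated sample and 3 samples of myocardial infarction (MI) that carry 1, 6 and 24 h in their names, with 1 library each. The treatment labels tie those hours to reperfusion, while the design text speaks of ligation for the same hours and of separate reperfused hearts, which leaves open what they measure. No strain but Sprague Dawley, no genetic change and no age is labelled. Barcode suffixes 1 to 4 separate the libraries without tying them to the samples, so values are given for libraries 1 to 4 and none was compared as sham or infarct.

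Leukocytes leave the blood in steps. Selectins on activated endothelium (P-selectin from Selp, E-selectin from Sele) catch sialylated and fucosylated sugars on leukocyte proteins, above all P-selectin glycoprotein ligand 1 (Selplg), and let the cell roll. Leukocyte integrins then bind VCAM-1, ICAM-1 and ICAM-2 for arrest and crawling, before the cell passes the junctions. P-selectin protein is stored in granules of venous endothelium and in platelets, whereas E-selectin, VCAM-1 and ICAM-1 are made after NF-kB is switched on by cytokines, and ICAM-2 is present on resting endothelium.

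The promoters of Vcam1 and Icam1 are shown because the NF-kB motif can be read in both and because both genes were higher in endocardial-like nuclei than in the other endothelial-like nuclei of libraries 1, 3 and 4. Bases are printed 5′ to 3′ on the gene's strand up to the base before the annotated gene start (RefSeq, GRCr8), and capitals mark the match to GGNATTTCC on either strand. The Vcam1 stretch is chr2:206742784-206743033 (minus strand, 250 bases) and the Icam1 stretch chr8:27829595-27829687 (plus strand, 93 bases).
Vcam1: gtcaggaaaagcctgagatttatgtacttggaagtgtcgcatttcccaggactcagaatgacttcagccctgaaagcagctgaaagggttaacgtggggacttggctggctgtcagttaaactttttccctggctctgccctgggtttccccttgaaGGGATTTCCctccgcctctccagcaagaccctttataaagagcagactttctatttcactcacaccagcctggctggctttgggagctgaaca
Icam1: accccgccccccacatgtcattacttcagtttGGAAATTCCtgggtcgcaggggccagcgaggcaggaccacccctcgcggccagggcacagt
The match ended 85 bases before the gene start in Vcam1 and 53 bases before it in Icam1. This motif, one spelling of the NF-kB element picked with the sequences in view, was found in 1.14% of 33469 rat promoters over 250 bases and in 0.335% over 93 bases. A match is a description of letters and not a bound site. The counts below are not tied to a start site.

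Libraries 1 to 4 gave 8363, 12897, 14287 and 6181 nuclei that passed the filters. The median depth was 1296, 602, 1884 and 2215 UMIs (unique molecular identifiers), and 368 of the 41728 nuclei (0.882%) carried a barcode sequence found in more than 1 library. Classes were named from marker genes that hold none of the adhesion genes, which were also kept out of the clustering, and each name is "-like" because it rests on markers alone. Endothelial-like nuclei numbered 2051, 139, 2608 and 2212. All 12 endothelial markers were detected in them in every library, as were all 8 cardiomyocyte and all 9 fibroblast markers. Detection alone therefore does not set the class apart, and the endothelial markers also served to name it. Library 2 stood apart, with 92.8% of its nuclei in clusters that no marker list named, against 0.311, 6.21 and 14.7% in libraries 1, 3 and 4. Levels are a gene's UMIs as counts per 1e6 UMIs of the class in that library (CPM). Each sample has a single library, so nothing could be tested across replicates, and the 95% intervals cover counting error only. UMIs tag 3′ ends and are not divided by length, so levels of different genes were not compared.

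Selp, Sele and Vcam1 were the adhesion genes that stood higher in endothelial-like nuclei than in all other named nuclei in every library. Each was at least 2-fold higher there than in all other named nuclei of the same library in 4 of 4 libraries, and that makes 3 of the 6 genes, against 3.26% of the 15782 genes measured. Icam2 met the mark in libraries 1, 3 and 4 and missed it in library 2, and without that library 4 of the 6 genes met it, against 5.27% of all genes. Icam1 and Selplg did not. Of all Selp UMIs in named nuclei, 79.3% lay in endothelial-like nuclei, as did 75.5% for Sele, 73.1% for Vcam1, 55.7% for Icam2, 37.1% for Icam1 and 20.5% for Selplg.

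**Figure D1:**
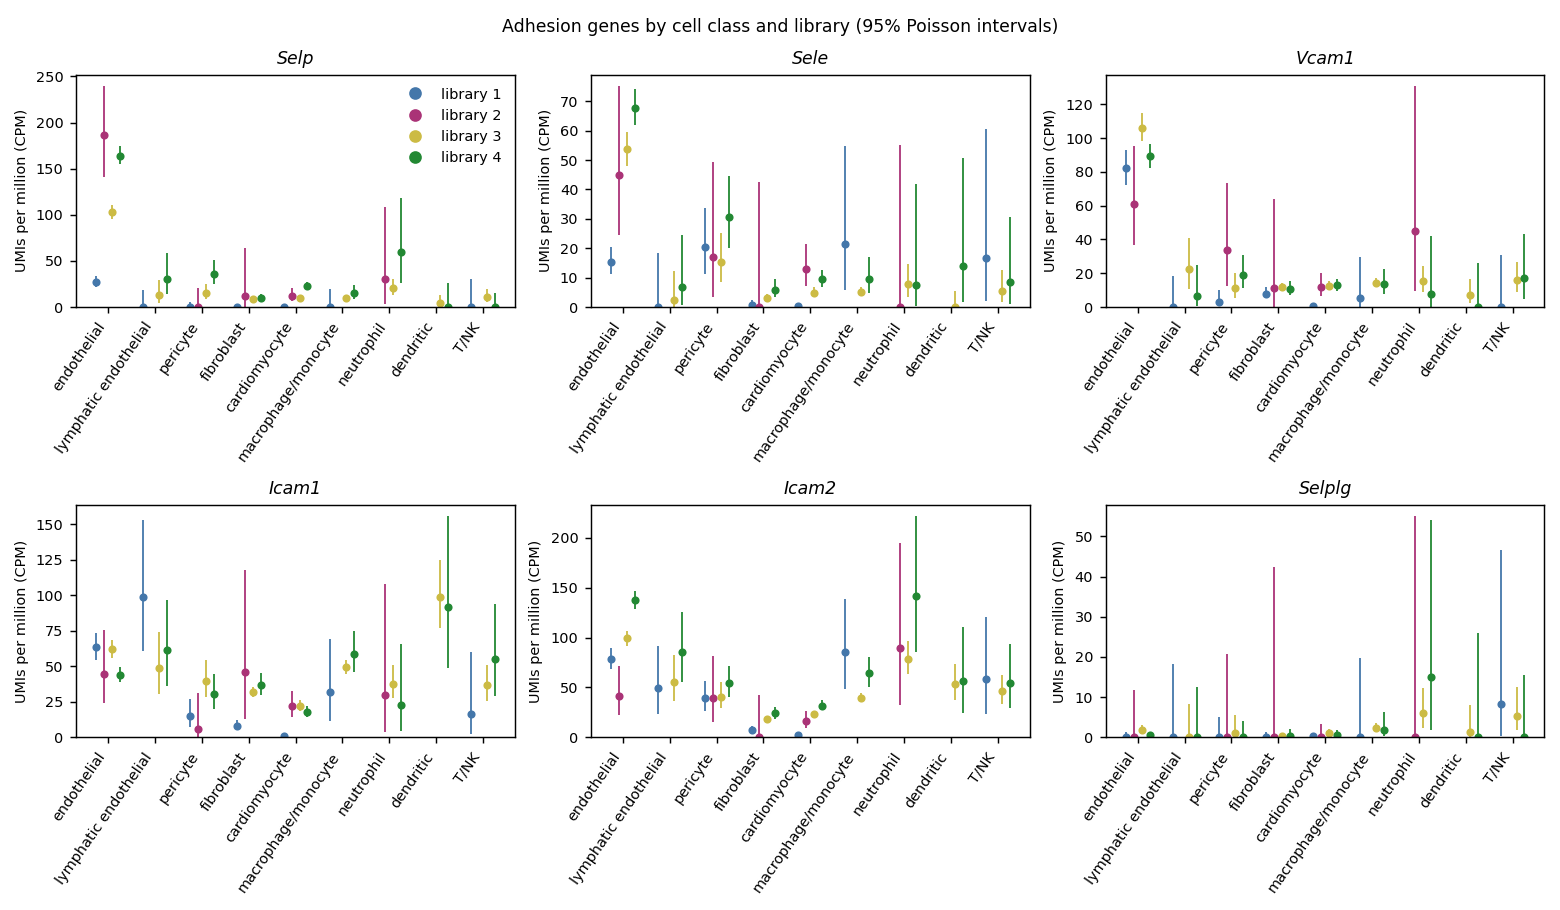
Level of 6 adhesion genes (CPM, linear axis from 0, a different scale per panel) in 9 classes, with a point for each of libraries 1 to 4 and its 95% Poisson interval, for classes with at least 50 nuclei in the library. Selp points stand highest in endothelial-like nuclei (27.1 to 186 CPM), whereas Icam1 and Icam2 points of several classes reach or pass the endothelial-like ones.

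Selp encodes P-selectin. Its endothelial-like level was 27.1 CPM in library 1 (81 UMIs), 186 in library 2 (58 UMIs), 103 in library 3 (646 UMIs) and 164 in library 4 (1173 UMIs), and in all other named nuclei 0.0792, 11.9, 9.84 and 18.9 CPM. Library 1 was lowest on both sides. The ratio of endothelial-like to other named nuclei was 342 (59.6 to 13668, on 1 UMI outside the class), 15.6 (9.16 to 27.7), 10.5 (9.11 to 12.1) and 8.67 (7.45 to 10.1). Pericyte-like nuclei held 15.3 and 36.2 CPM in libraries 3 and 4, cardiomyocyte-like nuclei 9.74 and 22.6 CPM. In library 1 the Selp count was 0 in 2690 cardiomyocyte-like nuclei, which allows a share of nuclei with a UMI of up to 0.137% (exact bound).

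Sele encodes E-selectin, which is made on endothelium after cytokine exposure. Endothelial-like nuclei held 15.4, 44.9, 53.6 and 67.7 CPM in libraries 1 to 4, on 46, 14, 336 and 484 UMIs. Other named nuclei held 1.98, 10.7, 4.68 and 10 CPM. The ratios were 7.77 (4.67 to 13.2), 4.21 (1.92 to 9.07), 11.4 (9.36 to 14) and 6.78 (5.47 to 8.46). In library 1 the endothelial-like level did not stand above that of macrophage- or monocyte-like nuclei (21.3 CPM), pericyte-like nuclei (20.4 CPM) or T or NK-like nuclei (16.7 CPM), whose intervals overlap it on few UMIs. The macrophage- or monocyte-like value came from 1 of 198 nuclei, with 4 UMIs. In libraries 3 and 4 the next class was pericyte-like, at 15.3 and 30.5 CPM.

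Vcam1 encodes the ligand of the leukocyte integrin alpha-4 beta-1. Endothelial-like levels were 82.2, 60.9, 106 and 89.3 CPM on 246, 19, 666 and 638 UMIs, and levels in other named nuclei 2.61, 16.9, 13 and 12.3 CPM. The ratios were 31.5 (21.8 to 46.7), 3.60 (1.89 to 6.71), 8.16 (7.19 to 9.27) and 7.26 (5.99 to 8.84). In library 3 the other classes lay between 7.17 and 22.3 CPM and in library 4 between 0 and 19.2 CPM, with fibroblast-like nuclei at 11.9 and 10.5 CPM and macrophage- or monocyte-like nuclei at 14.5 and 13.9 CPM.

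Icam1 encodes a ligand of the beta-2 integrins that many cell types make under inflammation. Its endothelial-like level was 63.5, 44.9, 61.9 and 44.1 CPM on 190, 14, 388 and 315 UMIs, against 5.78, 20.1, 37.0 and 31.5 CPM in other named nuclei. The ratios were 11 (8.34 to 14.6), 2.24 (1.10 to 4.31), 1.67 (1.49 to 1.88) and 1.40 (1.19 to 1.64). With each nucleus weighted alike the library 4 ratio turned to 0.990. Dendritic-like nuclei had the highest Icam1 level of the 11 classes in libraries 3 and 4, at 98.9 and 91.5 CPM, above endothelial-like nuclei by more than counting error in library 3, whereas the intervals met in library 4. Lymphatic endothelial-like nuclei were highest in library 1, at 99.1 CPM on 20 UMIs, with endothelial-like nuclei next and the intervals overlapping.

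Icam2 encodes a further beta-2 integrin ligand of resting endothelium and leukocytes. The endothelial-like level was 78.5, 41.7, 99.3 and 138 CPM on 235, 13, 623 and 985 UMIs. Other named nuclei held 8.08, 22.6, 31.0 and 39.6 CPM. The ratios were 9.72 (7.68 to 12.4), 1.85 (0.898 to 3.56), 3.21 (2.89 to 3.56) and 3.48 (3.10 to 3.91). Neutrophil-like nuclei stood at 78.3 and 142 CPM in libraries 3 and 4, and in library 4 that level and the endothelial-like one did not differ beyond counting error. Macrophage- or monocyte-like nuclei held 85.3 CPM in library 1, on an interval that spans the endothelial-like level.

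Selplg, the leukocyte ligand of P-selectin, was near the limit of detection. Only 83 Selplg UMIs were found in the 41728 nuclei, 4, 3, 61 and 15 in libraries 1 to 4, and none in a named nucleus of library 2. Leukocyte-like nuclei (macrophage or monocyte, neutrophil, dendritic, T or NK and B cell) held 3.07, 0, 2.91 and 2.24 CPM. Other named nuclei held 0.196, 0, 0.967 and 0.508 CPM. The ratio was 15.6 in library 1 (0.298 to 195, on 1 and 3 UMIs), 3.01 in library 3 (1.73 to 5.33) and 4.41 in library 4 (0.972 to 16.5). Within the leukocytes, neutrophil-like nuclei held 6.02 CPM in library 3 and 15 in library 4, on 7 and 2 UMIs. Their ratio to other named nuclei was 4.21 (1.61 to 9.34) in library 3.

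No adhesion gene was 2-fold higher in leukocyte-like nuclei in all 4 libraries, against 4.67% of all genes; Selplg met the mark in libraries 1, 3 and 4, where 6.56% of genes did. By the ratio alone Selp was 2-fold lower there in all 4, the single gene of the 6, against 6.31% of all genes. Its leukocyte-like level was 0, 19.8, 10.5 and 14.0 CPM, beside 5.36, 42.1, 33.1 and 85.3 CPM in all other named nuclei. The intervals of the ratio span equality in library 1 (0 to 2.16, on 0 leukocyte UMIs) and library 2 (0.0949 to 1.43, on 3). The lower level was thus beyond counting error in libraries 3 and 4, with ratios of 0.317 (0.260 to 0.385) and 0.164 (0.106 to 0.243). Neutrophil-like nuclei alone were not lower beyond counting error in those libraries. Their Selp ratios to all other named nuclei were 0.789 (0.503 to 1.18) and 0.767 (0.330 to 1.52). The Sele ratio in leukocyte-like nuclei of library 1 was 4.33 (1.53 to 9.95, on 6 UMIs). Of these UMIs, 4 lay in 1 macrophage- or monocyte-like nucleus, which the interval does not allow for. Sele was lower in leukocyte-like nuclei of libraries 3 and 4, with ratios of 0.304 (0.227 to 0.401) and 0.247 (0.140 to 0.404). Vcam1 had 2.08 (0.786 to 4.71, on 7 UMIs) in library 2 and lay below equality in the other 3 libraries. Icam2 was higher in leukocyte-like nuclei of libraries 1 and 2, with ratios of 3.76 (2.40 to 5.66) and 2.98 (1.32 to 6.07), and close to the other nuclei in libraries 3 and 4, with 1.09 (0.975 to 1.21) and 0.813 (0.668 to 0.983). Icam1 ratios in leukocyte-like nuclei were 1.66, 0.810, 1.34 and 1.62.

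Free RNA in the droplets and RNA of other cells can be part of these levels. By the subtraction that brings other classes' markers to 0, up to 18.9, 49.5, 61.4 and 47.1% of endothelial-like UMIs in libraries 1 to 4 came from outside the class. After that subtraction Selp stood at 32.1, 333, 226 and 246 CPM in endothelial-like nuclei and at 0, 13.4, 0 and 1.30 CPM in leukocyte-like nuclei. Sele in library 1 was 17.9 CPM in endothelial-like and 23.7 CPM in leukocyte-like nuclei, and Vcam1 in library 2 was 94.7 and 92.7 CPM, so endothelial-like nuclei did not stand apart from leukocyte-like ones in those values. The leukocyte-like Sele value rests on 6 UMIs, 4 of them in 1 nucleus. Icam1 stood at 31.7, 6.71, 66.3 and 79.4 CPM in leukocyte-like nuclei after the subtraction, against 74.3, 47.2, 94.2 and 50.4 CPM in endothelial-like ones. Icam2 stood at 97.5, 127, 50.5 and 58.4 CPM, against 91.8, 44.0, 190 and 192 CPM. The leukocyte-like level was thus the higher for Icam1 in library 4 and for Icam2 in libraries 1 and 2. Neutrophil-like nuclei then stood at 243 and 310 CPM of Icam2 and 26.5 and 51.3 CPM of Selplg in libraries 3 and 4. By the same subtraction up to 82.2 and 71.8% of their UMIs came from outside the class. These CPM are therefore shares of a much smaller total, and Icam2 was 78.3 and 142 CPM before it. The neutrophil-like Selplg values rest on 7 and 2 UMIs.

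Few nuclei held a UMI of any adhesion gene. At full depth, the share of endothelial-like nuclei with a Selp UMI was 1.07, 20.1, 11.2 and 16.2% in libraries 1 to 4, beside 0, 2.71, 4.80 and 5.10% of cardiomyocyte-like nuclei, a class not known to make P-selectin. Cardiomyocyte-like nuclei were deeper, with medians of 2596, 1989, 4327 and 5093 UMIs against 1032, 1763, 1908 and 2494.5 in endothelial-like nuclei. Thinned to 500 UMIs per nucleus, with no nucleus left out because 500 was the filter, the Selp shares were 0.488, 8.63, 3.45 and 3.93% against 0, 0.739, 0.444 and 0.275%. Icam2 shares, thinned, were 3.66, 2.88, 4.45 and 6.06% against 0.149, 0.739, 1.07 and 1.24%. Icam1 at full depth showed 9.24 and 9.09% of endothelial-like nuclei in libraries 3 and 4 beside 10.6 and 8.40% of cardiomyocyte-like nuclei, and thinned 2.53 and 2.12% beside 0.80 and 0.689%. Over 24 pairs of gene and library, the thinned endothelial-like interval lay wholly above the cardiomyocyte-like one in 15.

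The UMIs of some genes sat in very few nuclei. In library 1, 22 of 2051 endothelial-like nuclei held all 81 Selp UMIs, and the 2 highest held 37 and 16. Without those 2 nuclei, chosen after the values were seen, Selp in library 1 was 9.38 CPM in place of 27.1. In libraries 3 and 4, 291 and 359 nuclei held Selp UMIs, and the 10 highest carried 19.2 and 19.3% of them. One nucleus of library 3 held 98 of 666 Vcam1 UMIs, and the level without the 2 highest was 86.1 CPM. Icam2 was spread most evenly: no endothelial-like nucleus held more than 7 UMIs, and the 10 highest carried 5.14 and 5.48% in libraries 3 and 4.

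**Figure D2:**
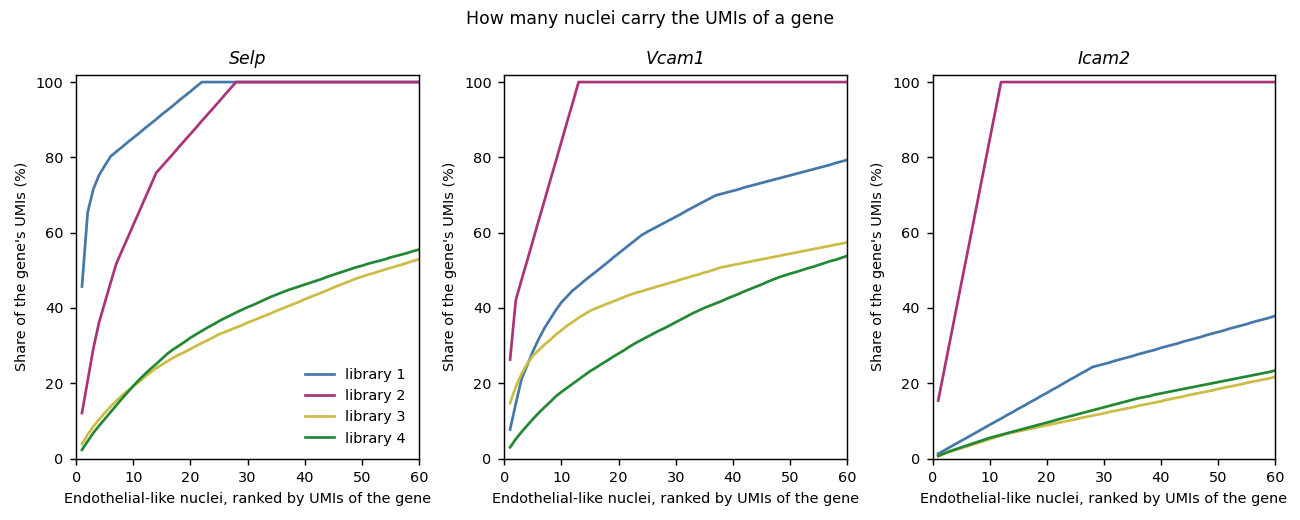
Cumulative share (%) of a gene's UMIs in endothelial-like nuclei (y) against the number of nuclei, ranked from the highest (x, first 60), for Selp, Vcam1 and Icam2, with a line per library. The Selp line of library 1 climbs within its 10 highest nuclei to 85.2%, those of libraries 3 and 4 reach 19.2 and 19.3%, and Icam2 lines of libraries 3 and 4 stay near 5%; library 2 has 139 endothelial-like nuclei and few UMIs.

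Levels in endothelial-like nuclei differed between libraries for the selectins more than for Vcam1 and Icam1. The highest library was at least 2-fold over the lowest for Selp (6.87-fold, library 2 highest, as for 19.6% of all genes), and for Sele (4.41-fold) and Icam2 (3.31-fold, library 4 highest in both, as for 9.53% of all genes), but not for Vcam1 (1.74-fold) or Icam1 (1.44-fold). These are 3 of the 5 genes with at least 30 endothelial-like UMIs, and 56.5% of all genes did the same, so the count is near the background. Selplg, with 15 such UMIs, was not counted. Without library 2 the spans of Selp and Sele passed and that of Icam2 did not, 2 of 5 genes against 41.3% of all genes. After free RNA was subtracted the span of Vcam1 passed too, with 97.2, 94.7, 229 and 132 CPM in libraries 1 to 4. That of Icam1 stayed just under the mark, with 74.3, 47.2, 94.2 and 50.4 CPM.

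Selp was 3.80-fold (3.02 to 4.86) higher in library 3 than in library 1 and 6.06-fold (4.84 to 7.69) higher in library 4. Sele was 3.48-fold (2.56 to 4.85) and 4.41-fold (3.25 to 6.1) higher. For Vcam1 the values were 1.29-fold (1.11 to 1.50) and 1.09-fold (0.936 to 1.26), for Icam1 0.974-fold (0.817 to 1.17) and 0.694-fold (0.578 to 0.836), and for Icam2 1.26-fold (1.09 to 1.48) and 1.76-fold (1.52 to 2.03). Thus 2 of the 5 genes were 2-fold higher in each of libraries 3 and 4, against 29.5 and 28.0% of all genes, and the same genes, Selp and Sele, made up both counts. The comparisons share library 1.

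Several other measures also differed between libraries, not always in the order of Selp or Sele, and their part in these differences was not tested. Different kinds of endothelial-like nuclei made up the class in each library, as set out below. Neutrophil markers summed to 64.8, 199, 1214 and 464 CPM in endothelial-like nuclei of libraries 1 to 4, with 2, 2, 0 and 0 of the 9 markers at 0, against 47.1, 453, 1269 and 580 CPM over the whole library. Platelet markers, relevant because platelets carry P-selectin, summed to 13, 6.41, 99.6 and 43.2 CPM, with 5, 7, 2 and 2 of 9 at 0, against 7.41, 13.3, 121 and 54.6 CPM over the whole library. Macrophage or monocyte markers summed to 249, 2012, 2504 and 1132 CPM in endothelial-like nuclei and erythroid markers to 20, 3.20, 213 and 489 CPM. The median mitochondrial share over the nuclei past the filters was 0.0745, 0.492, 1.24 and 1.09%. Scaling by the median of gene ratios instead of the class total shifted all genes of libraries 2, 3 and 4 by -0.22, -0.15 and -0.17 on the log2 scale against library 1. Under that scaling Selp stood at 31.9, 169, 101 and 157 CPM and Sele at 18.1, 40.8, 52.3 and 64.7 CPM.

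Sub-clusters of the endothelial-like nuclei differed in which adhesion genes they carried. All 5 genes other than Selplg differed at least 2-fold between the highest and lowest sub-cluster in both library 3 and library 4, as did 32.9% of the 12609 genes measured in these nuclei. Sub-cluster 0 was capillary-like, with 1704 of its 1723 nuclei in library 1. Sub-cluster 1 was left unnamed because 3 of 7 venous and 3 of 7 capillary markers passed. It held 8, 13, 686 and 605 nuclei and was led by Ptn, Slco2a1, Dab1, Lhx6 and the venous transcription factor Nr2f2. In coarser sub-clustering the cluster led by Ptn, Slco2a1 and Dab1 was named capillary-like. There 5 of 7 capillary and 3 of 7 venous markers passed. In finer sub-clustering the cluster led by these genes stayed unnamed. Sub-cluster 2 (led by S100a9 and Slpi, genes of neutrophils and secretory epithelia) and sub-cluster 3 (led by Kit, Apln and Pgf) were unnamed too and lay almost wholly in libraries 3 and 4. Endocardial-like nuclei numbered 133, 96, 512 and 256 and arterial-like nuclei 123, 4, 124 and 215. Since most sub-clusters lie mostly in 1 or 2 libraries, a sub-cluster may mark a library and not a type.

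**Figure D3:**
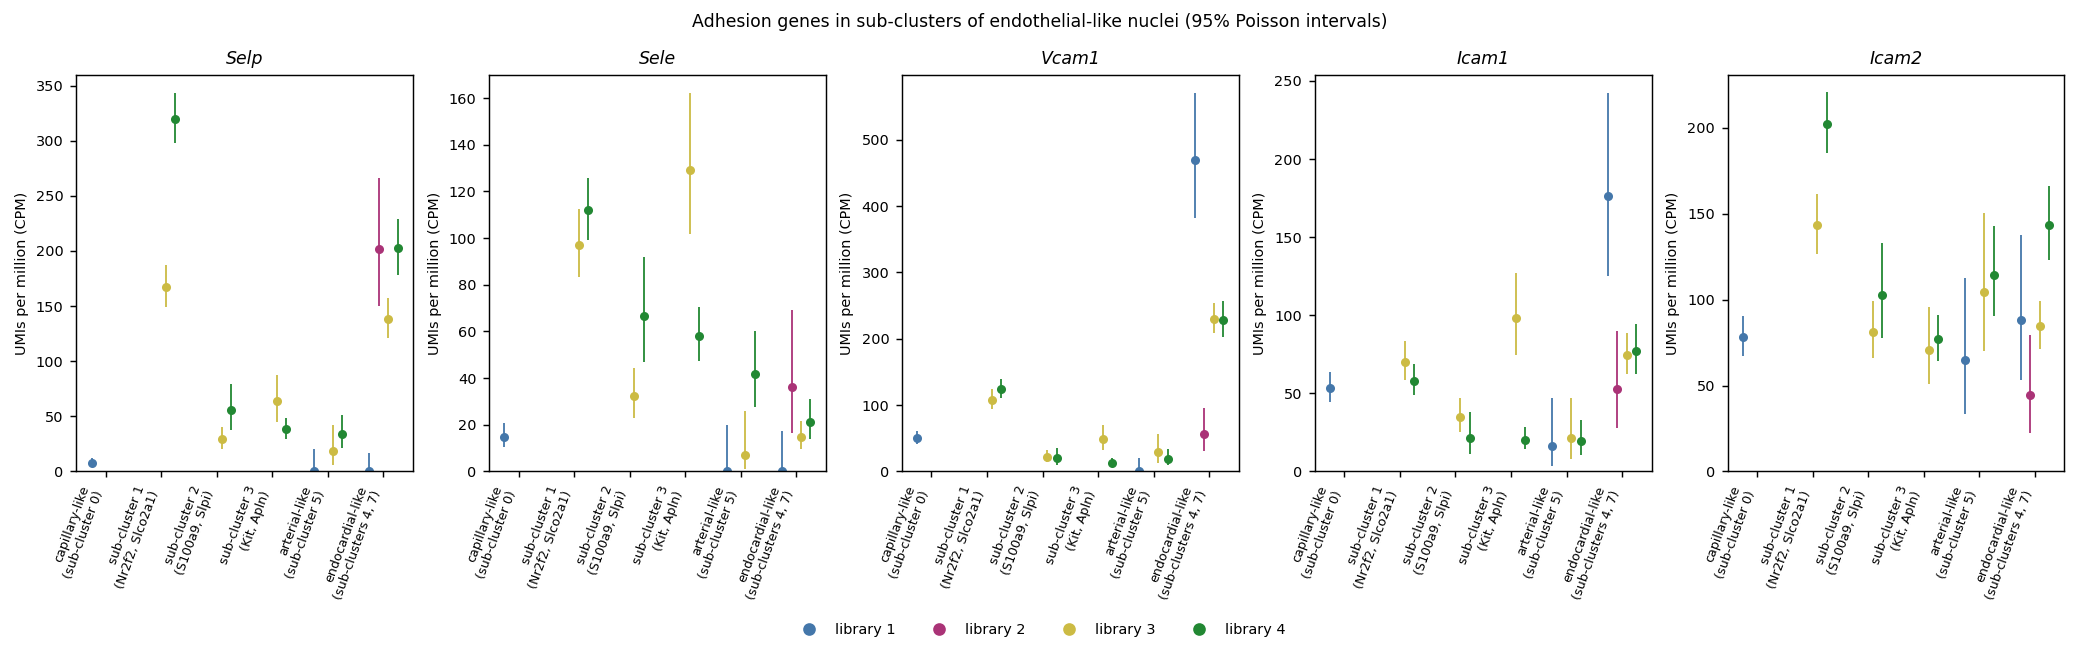
Level of 5 adhesion genes (CPM, linear axis from 0, a different scale per panel) in 6 groups of endothelial-like nuclei, with a point per library of at least 50 nuclei and its 95% Poisson interval. Sub-cluster 1 has the highest Selp points of libraries 3 and 4 (168 and 320 CPM), and endocardial-like nuclei have the highest Vcam1 points of libraries 1, 3 and 4.

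Of the sub-clusters with at least 50 nuclei, sub-cluster 1 had the highest Selp in libraries 3 and 4 and the highest Sele in library 4. Selp there was 168 CPM in library 3 and 320 in library 4, against 76.1 and 82.6 CPM in the other endothelial-like nuclei, ratios of 2.21 (1.88 to 2.58) and 3.87 (3.43 to 4.39). Sele was 97.2 and 112 CPM against 35.4 and 44.6 CPM, ratios of 2.74 (2.20 to 3.42) and 2.51 (2.09 to 3.02). Both passed the 2-fold mark in both libraries, 2 of 5 genes against 1.52% of all genes. Sub-cluster 1 held 47.8 and 67.0% of endothelial-like Selp UMIs with 26.3 and 27.4% of the nuclei. Icam2 was also higher, with ratios of 1.77 (1.50 to 2.08) and 1.95 (1.72 to 2.21), and Vcam1 had 1.02 (0.864 to 1.21) and 1.77 (1.51 to 2.07).

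In library 1 only 8 nuclei fell in sub-cluster 1, and they held 61 of the 81 Selp UMIs (75.3%) and 12 of the 46 Sele UMIs (26.1%). Selp in the 1704 capillary-like nuclei of that library was 7.84 CPM (4.65 to 12.4), and Sele 14.8 CPM (10.3 to 20.7). Since 20 Selp UMIs lay outside these 8 nuclei, and 22 nuclei held a Selp UMI, the 2 nuclei with 37 and 16 UMIs are among the 8. Venous markers did not move together in sub-cluster 1. Nr2f2 was 441 and 488 CPM in libraries 3 and 4, against 132 and 97.5 CPM in the rest. Ephb4 was 293 and 380 CPM against 148 and 164 CPM, and Tll1 502 and 615 CPM against 168 and 198 CPM. Lrg1 was 138 and 144 CPM against 114 and 64.0 CPM, and Il6st 141 and 154 CPM against 144 and 152 CPM. Vcan was lower, at 586 and 197 CPM against 1378 and 747 CPM, as was Adgrg6, at 27.7 and 15.9 CPM against 130 and 119 CPM. The rest includes endocardial-like nuclei, which held 2162 and 1753 CPM of Vcan and 272 and 380 CPM of Adgrg6. Capillary markers were split too. Fabp4 was 870 and 1522 CPM in the same libraries, against 473 and 601 CPM. Aqp1 was 517 and 775 CPM against 201 and 198 CPM, and Aplnr 233 and 302 CPM against 71.8 and 75.1 CPM. Btnl9 was lower, at 3.26 and 8.54 CPM against 35.7 and 75.1 CPM. Gpihbp1 and Car4 were lower in both libraries as well, and Rgcc was lower in library 3 and higher in library 4. Of the platelet markers, Ppbp was at 0 in sub-cluster 1 and in the rest in every library, Pf4, which macrophages also make, was 68.9 and 18.3 CPM in libraries 3 and 4 against 99.5 and 38.0 CPM, and Itga2b was 13 and 15.9 CPM against 4.51 and 7.47 CPM. The part of platelet RNA in the Selp level was not tested.

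Endocardial-like nuclei carried the most Vcam1. Vcam1 stood at 469, 56.5, 230 and 228 CPM in libraries 1 to 4, against 52.2, 77.6, 59.5 and 60.7 CPM in the other endothelial-like nuclei. The ratios were 8.98 (6.90 to 11.7), 0.728 (0.248 to 2.58), 3.87 (3.31 to 4.54) and 3.75 (3.20 to 4.40), so library 2, with 14 UMIs, did not share the pattern. Vcam1 was the single gene of 5 at 2-fold higher in both libraries 3 and 4, against 4.67% of all genes. These nuclei held 41.1% of the endothelial-like Vcam1 UMIs of library 1 with 6.48% of the nuclei.

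Sele went the other way in endocardial-like nuclei, the single gene of 5 at 2-fold lower in libraries 3 and 4, against 4.12% of all genes. Its levels were 0, 36.3, 14.6 and 21.3 CPM. The ratios in libraries 3 and 4 were 0.213 (0.136 to 0.321) and 0.276 (0.178 to 0.409). Selp in the same nuclei was 0, 202, 138 and 202 CPM. Libraries 2, 3 and 4 were thus high and library 1 had no Selp UMI, with an interval for the 130 nuclei of its own endocardial-like sub-cluster that reaches 17.8 CPM. Library 1's endocardial-like nuclei nearly all formed sub-cluster 7 and those of the others sub-cluster 4, so the values compare different clusters. Icam1 was 176, 52.5, 74.6 and 77.1 CPM, highest in library 1, with ratios of 3.22 (2.20 to 4.63) there, 1.31 (1.05 to 1.62) in library 3 and 2.07 (1.61 to 2.64) in library 4.

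In library 2, 96 of the 139 endothelial-like nuclei were endocardial-like, and they held 86.2% of its endothelial-like Selp UMIs. Selp was 202 CPM in these nuclei and 124 CPM, on 8 UMIs, in its other endothelial-like nuclei.

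Arterial-like nuclei were low in Selp, Vcam1 and Icam1. Selp, Sele and Vcam1 had no UMI in the 123 arterial-like nuclei of library 1, on intervals up to 19.9 CPM. In libraries 3 and 4 Selp was 18.1 and 34.2 CPM, with ratios to other endothelial-like nuclei of 0.169 (0.0546 to 0.396) and 0.192 (0.121 to 0.290). Vcam1 was 28.9 and 19.3 CPM, with ratios of 0.263 (0.113 to 0.522) and 0.200 (0.106 to 0.344), and Icam1 21.7 and 19.3 CPM, with ratios of 0.340 (0.124 to 0.747) and 0.414 (0.218 to 0.718). These were 3 of 5 genes at 2-fold lower in both libraries, against 4.95% of all genes. Sele was 7.22 and 41.6 CPM, with ratios of 0.130 (0.0156 to 0.472) and 0.590 (0.388 to 0.865), and missed the mark in library 4. Icam2 did not differ beyond counting error, at 64.6, 105 and 114 CPM in libraries 1, 3 and 4, with ratios of 0.814 (0.414 to 1.45), 1.06 (0.702 to 1.53) and 0.815 (0.637 to 1.03).

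Sub-cluster 3 had the highest Sele level of library 3, at 129 CPM, with a ratio of 2.82 (2.15 to 3.66) to the other endothelial-like nuclei. Icam1 there was 98.2 CPM, with a ratio of 1.69 (1.25 to 2.24). In library 4 its Sele was 57.9 CPM and the ratio 0.817 (0.649 to 1.02). Its Icam1 was 20.3 CPM and the ratio 0.392 (0.268 to 0.559), so the libraries differed for Sele and Icam1. Vcam1 was low in it in both, with ratios of 0.431 (0.284 to 0.628) and 0.117 (0.0738 to 0.178). Sub-cluster 2 was low in Selp and Vcam1 in both libraries: Selp ratios were 0.241 (0.166 to 0.339) and 0.323 (0.218 to 0.460), and Vcam1 ratios 0.178 (0.116 to 0.261) and 0.208 (0.104 to 0.376).

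The unnamed nuclei of library 2 carried the genes at levels between those of its endothelial-like and other named nuclei or above both. Cluster 0, with 10159 nuclei of library 2 and a median of 574 UMIs, held 39.0 CPM of Selp, 29.0 of Sele, 29.2 of Vcam1, 52.5 of Icam1 and 45.3 of Icam2. Cluster 8, with 1787 nuclei and a median of 1597 UMIs, held 30.1, 33.3, 23.5, 36.4 and 36.6 CPM in the same order. Selplg had 3 UMIs in the former and 0 in the latter. Endothelial-like Selp in that library, at 186 CPM, stood above both clusters.

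Among other genes of the adhesion cascade, the leukocyte integrins marked leukocyte-like nuclei and some junction genes marked endothelial-like ones. The lists were named for these roles, and their genes could take part in the clustering, so the counts describe the classes. Of 13 measured integrins and anchors, 10 were 2-fold higher in leukocyte-like nuclei in all 4 libraries, against 4.67% of all genes. Their median log2(CPM + 10) difference was 1.88, against -0.01 over all genes. Itgal, the alpha chain of LFA-1 that binds ICAM-1 and ICAM-2, stood at 147, 178, 103 and 112 CPM against 4.64, 18.2, 19.8 and 13.3 CPM, a median difference of 2.57. Itgb2, its beta-2 partner, had a median difference of 2.56. Itga4, the alpha-4 chain that binds VCAM-1, stood at 245, 152, 264 and 286 CPM against 8.43, 30.8, 68.4 and 30.7 CPM, a median difference of 2.43. Itgb1, the partner of alpha-4 and present in most cells, had -0.25, and Itga9, a further VCAM-1-binding chain, -1.29.

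**Figure D4:**
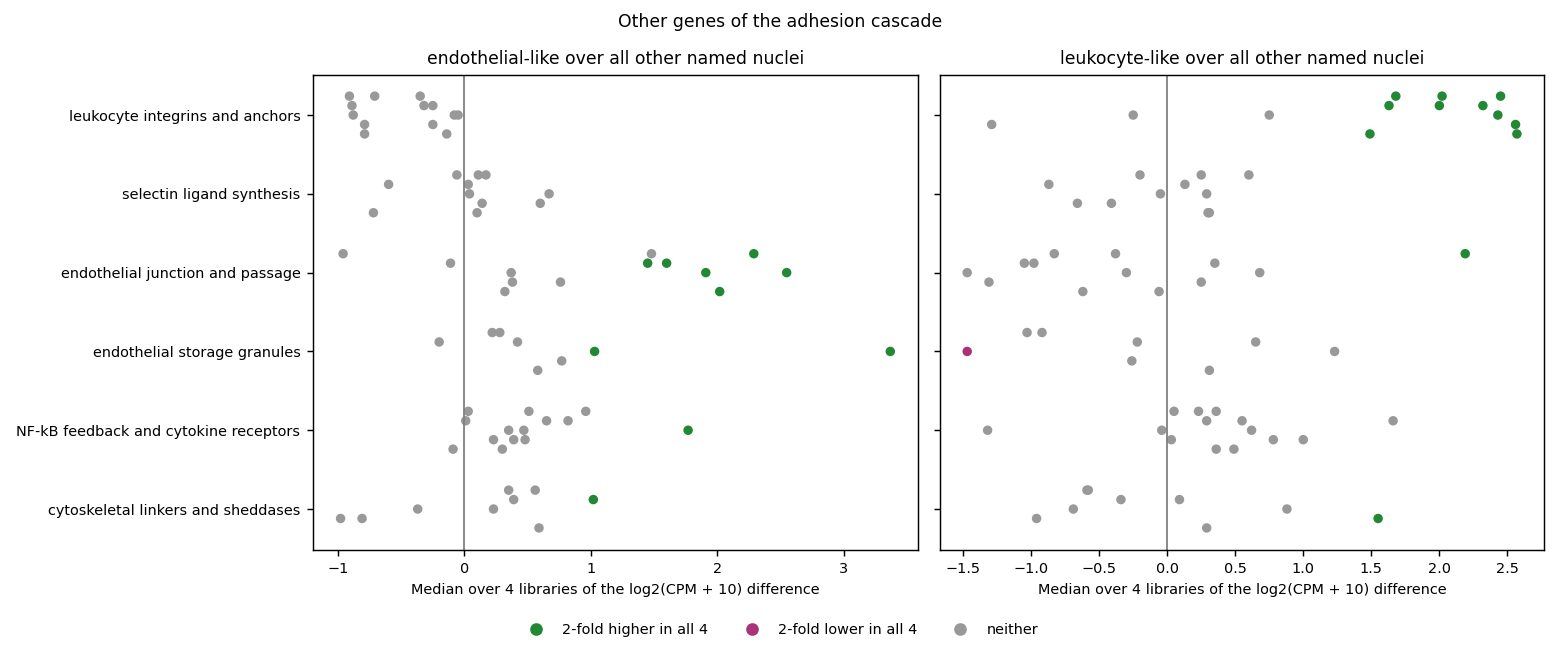
Each point is a gene of 1 of 6 lists, at its median over 4 libraries of the log2(CPM + 10) difference between endothelial-like (left) or leukocyte-like (right) and all other named nuclei. Green marks genes at least 2-fold higher in all 4 libraries and purple those 2-fold lower. On the right 10 of 13 integrin genes are green, against 4.67% of all genes. On the left 6 of 13 junction genes are, against 3.26% of all genes.

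None of the 11 measured genes that build selectin ligands passed in leukocyte-like nuclei in either direction, with a median of 0.13. Of all genes, 4.67% passed as higher and 6.31% as lower. Tpst2, a tyrosine sulfotransferase that acts on the Selplg protein, had 0.60 and Gcnt1, the enzyme of core-2 branches, 0.31, whereas the sialyltransferases St3gal6 and St3gal3 had -0.66 and -0.87.

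On the endothelial side 6 of 13 measured junction and passage genes were 2-fold higher in all 4 libraries, against 3.26% of all genes. Their median difference was 1.29. Podxl, a sialomucin of the endothelial surface, had 2.55 and F11r, which encodes junctional adhesion molecule A, 2.29. Icam5, barely detected, had -0.11, and Alcam had -0.96 and was the gene of this list 2-fold higher in leukocyte-like nuclei. Of 8 storage-granule genes 2 passed: Vwf, the cargo that shares granules with P-selectin, at 999, 1477, 1137 and 1011 CPM (median difference 3.37), and Rab27a, a granule GTPase, at 101, 103, 117 and 90.1 CPM (1.03). Sytl4 had 0.22 and Cd63 -0.20. Vwf varied less between libraries than Selp. Rab27a was not particular to endothelial-like nuclei: leukocyte-like nuclei held 126, 212, 86.4 and 97.9 CPM, with a median difference of 1.23.

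Among 14 genes of NF-kB feedback and cytokine receptors, 1 passed in endothelial-like nuclei, against 3.26% of all genes. It was Il1r1, the interleukin-1 receptor, at 1247, 731, 1278 and 1271 CPM against 196, 198, 386 and 410 CPM (median difference 1.77). Tnfrsf1a, a TNF receptor, had 0.96, Tnfrsf1b 0.01 and Nfkb1 -0.09. Of 9 linkers and sheddases, 1 passed, Adam10, a protease that sheds surface proteins, at 1.02. Msn, a linker of ICAMs to actin, had 0.59, Ezr -0.81 and Vcl -0.98. A count of 1 does not set either of these short lists apart from the share over all genes.

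Profiles over 35 sums of a class in a library, each of at least 50 nuclei, were compared across 12634 genes by Pearson's r of log2(CPM + 10). These sums share libraries, depth and free RNA, so r is a description. The genes most like Selp were Exoc3l2 (0.771), Procr (0.767) and Fgf23 (0.767), and those most like Sele were Stc1 (0.781), Csmd2 (0.771) and Esam (0.743). For Vcam1 they were Car8 (0.788), Zmat4 (0.786) and Sdr9c7 (0.780), for Icam1 Lmo2 (0.781), Rassf1 (0.772) and Rin3 (0.768), and for Icam2 Ets2 (0.856), Dgkh (0.842) and Susd6 (0.837). F2rl2 (0.751), Cd33 (0.723) and Ric3 (0.720) came closest to Selplg, whose levels rest on few UMIs. Among the adhesion genes themselves, Selp and Vcam1 were most alike (0.759), followed by Selp and Sele (0.597), and Vcam1 and Icam1 had 0.253.

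The choice of doublet removal and of clustering resolution moved the size of the ratios, as did free RNA subtraction and weighting each nucleus alike. With no nuclei removed as doublets, the endothelial-like ratio was 4.98 and 4.88 for Selp, 5.13 and 3.73 for Sele and 4.12 and 4.36 for Vcam1 in libraries 3 and 4, all still over 2. At resolution 2 it was 15.2 for Selp and 12.7 for Sele in library 4. The genes past the mark in all 4 libraries stayed Selp, Sele and Vcam1 with no doublet removal and at resolution 2.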

How the data were processed

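Nuclei were isolated by Dounce homogenisation and libraries made with a 10x 3′ v3 kit, per the labels' protocols. The authors deposited unnormalized UMI counts for every gene in every nucleus. Per the file headers cellranger 5.0.1 wrote them, but per the submitters' processing notes the tools were Cell Ranger 6.1.1 and Seurat with the build rn7. The build behind the counts is therefore not settled; RefSeq coordinates of GRCr8 were used for promoters only.

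The adhesion genes, the lists and the markers were chosen with earlier results of these data known. The filters were a minimum of 500 UMIs and 300 genes and a maximum of 10% mitochondrial UMIs, and the highest scrublet scores were removed at 0.8% per 1000 nuclei. With scanpy 1.11.5, counts were scaled to 10000, log-transformed and reduced to 2000 variable genes, without the adhesion genes, and 30 principal components, and Leiden clustering of 15 neighbours at resolution 1 gave 22 clusters in 11 named classes, with 4 clusters unnamed. The naming rule was set with the clusters in view: a name needed 3 markers and at least 50% of those measured, each 2-fold higher than in other classes and in 5% of nuclei, no unrelated class at over 0.7 of that share, and at most 2 haemoglobin genes among the 10 leading genes; macrophage and monocyte markers were joined after the clusters were seen. Endothelial-like nuclei were clustered again at resolution 0.6 into 10 sub-clusters, of which 3 with many markers of another class were treated as mixed and kept in the class. UMIs were summed per class and library. Intervals (95%) are exact Poisson for CPM, conditional binomial for ratios and Clopper-Pearson for shares. For calls between libraries, and between the highest and lowest sub-cluster, a count below 3 on the lower side was raised to 3. The scripts were tested on simulated data. Named genes are the adhesion genes, the 2 highest and 2 lowest of each list by median difference, and the 3 genes most like each adhesion gene. Itga4 was named too, as the alpha-4 chain. Genes of a list needed 30 UMIs in named nuclei. Of the 74 list symbols, 72 were found, and the others are not analysed here. No library was tied to a sample, so no comparison of treatments was made. Alternatives were another UMI minimum, doublet removal, resolution, free RNA, weighting, scaling and leaving out library 2, and, added after seeing the data, leaving out mixed sub-clusters or the 2 nuclei highest in Selp and using unthinned shares.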

Additional observations from a re-analysis of the deposited data

How the results depend on the processing

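The count of adhesion genes 2-fold higher in endothelial-like nuclei in every library was 3 or 4 under each of the 9 alternatives run, always with Selp, Sele and Vcam1, and with Icam2 where it was 4. The count that differed between libraries was 2 to 4 under its 10. After free RNA was subtracted, 4 single-library ratios had nothing left outside the class and gave no value. In leukocyte-like nuclei the count of 0 became 1 without library 2, the gene being Selplg, which has no UMI in named nuclei of that library. The count that differed between endothelial sub-clusters, 5, was 3 with sub-clustering at 0.3. The Icam1 ratio in library 4 turned from 1.40 to 0.990 with the mean over nuclei; the cause was not tested. Endothelial-like intervals above cardiomyocyte-like ones numbered 15 at 500 UMIs, 16 at 1000 UMIs and 14 with no thinning. Selplg rests on 83 UMIs in all, and in library 2 each gene rests on at most 58 endothelial-like UMIs. No paired analysis was possible because each sample has 1 library and no test was made.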
